A study of Mus musculus with 6 samples.

Results

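The respiratory chain is the set of protein complexes in the inner mitochondrial membrane that passes electrons to oxygen and makes ATP. Its nuclear genes were examined here in mouse embryonic heart cells without Yap1, the transcriptional coactivator restrained by the Hippo kinases. Genes were taken by name on the array: symbols beginning with Nduf, Uqcr, Cox4 to Cox8 or Atp5, together with Sdha, Sdhb, Sdhc and Sdhd. Of 89 such genes with a probe set of their own, 87 had a mean intensity at or above the 40th percentile of all probe sets (85.7), among 13632 genes that passed the same level. Cox7b2 and Cox8c lay below it, with mean intensities over the 6 arrays of 28.8 and 72.8. Cox8c was the nearest gene under the level and Ndufa4l2, at 153, the nearest above it.

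The data were 6 arrays of RNA from E12.5 embryonic hearts, 3 from Yap KO embryos and 3 from Yap HET embryos. All embryos carried TNTCre, a Cre recombinase driven by the cardiac troponin T promoter, the Yap flox allele and the R26 mTmG reporter, which turns cells green after Cre has acted. Hearts were digested and the green cells sorted as cardiomyocytes, so deletion was limited to cells in which this Cre had been active. The controls were heterozygous and had therefore also lost a copy of Yap, and wild-type cells were not analysed here. Yap1 itself read 103, 84.7 and 86.6 on the Yap KO arrays, against 886, 927 and 871 on the Yap HET arrays. All 16 cardiomyocyte markers looked for, such as Tnnt2 and Actn2, were above the level on average. Log2 intensities correlated at 0.992 to 0.996 between arrays of a group and at 0.984 to 0.991 between groups. The study calls the arrays biological replicates, and no source used here says which embryos were littermates. In bulk RNA, a change in the number of cells of a type and a change in RNA per cell cannot be told apart.

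Electrons from NADH enter at complex I and those from succinate at complex II. Both pass through coenzyme Q to complex III and through cytochrome c to complex IV, which reduces oxygen, and complex V (ATP synthase) uses the proton gradient that results. Most subunits are made in every cell, but several of complex IV have alternative isoforms that depend on tissue, developmental stage or oxygen. Complex V is encoded here by the Atp5 genes.

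The respiratory chain as a whole differed little between Yap KO and Yap HET cells, and the gene that stood out was Cox4i2, the oxygen-sensitive isoform of the complex IV subunit 4. With Ndufa1, a small accessory subunit of complex I, it was higher in Yap KO cells, which made 2 of 87 genes higher and 0 lower (limma, adjusted p under 0.05, against 9.93% of all genes tested, 5.16% higher and 4.76% lower). At an unadjusted limma p under 0.05, 8 genes were higher and 3 lower, against 13.9% and 14.4% of all genes tested. Log2 changes, given throughout as Yap KO minus Yap HET with the standard error (SE), had a median of 0.0028 over the 87 genes and -0.017 over all genes tested, and 45 were positive and 42 negative. For 72 of the 87 genes (82.8%) the 95% interval of the change lay within 1.2-fold either way, as it did for 51.2% of all genes tested. The median SE was 0.054 for the 87 genes and 0.065 for all genes tested, so these genes were measured with a somewhat smaller error. They were also brighter, with a median intensity of 2925 against 438 for all genes tested. The shares over all genes tested were not matched for brightness. Groups did not overlap for 29 genes, 14 higher and 15 lower in Yap KO cells, against 33.9% of all genes tested (16.7% higher and 17.2% lower). The count of genes that were called rested on the model of the spread. With a trended and robust prior, 8 were higher and 5 lower, against 8.72% and 7.75% of all genes tested. Centring each array on its median gave 5 higher and 0 lower, against 7.74% and 2.49% of all genes tested.

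**Figure D1:**
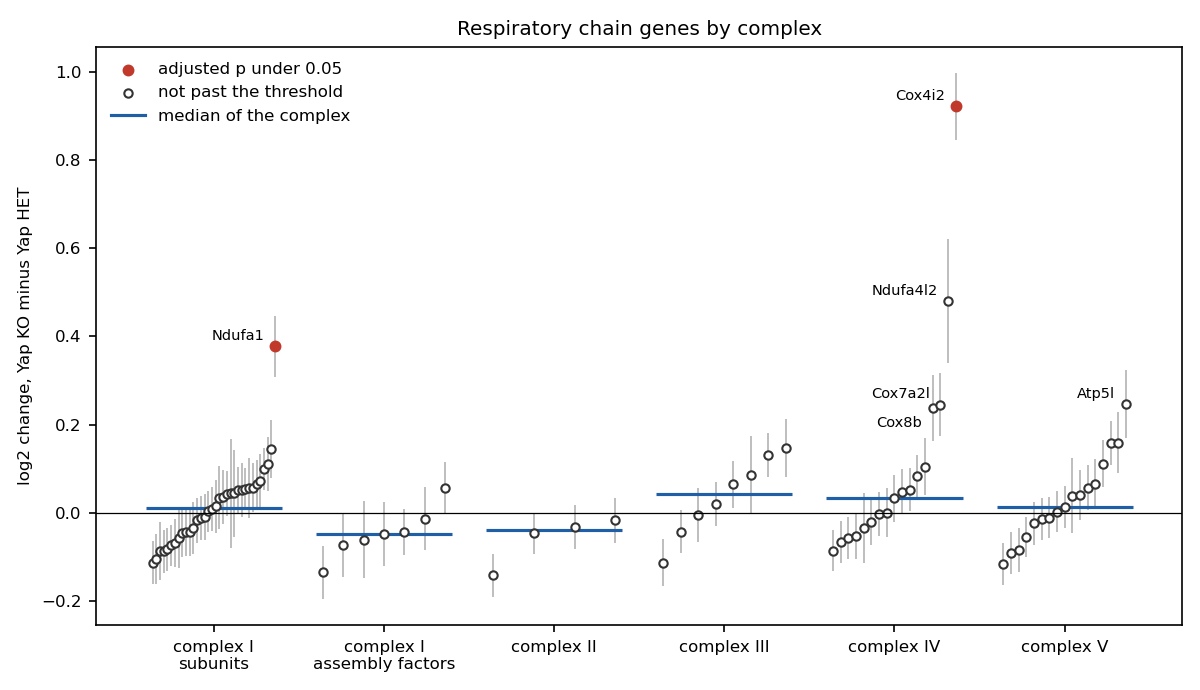
Log2 change (Yap KO minus Yap HET, vertical axis) of 87 respiratory chain genes, grouped by complex on the horizontal axis. Points are genes with their SE, filled where the adjusted p was under 0.05, and bars are medians. Cox4i2 at 0.92 and Ndufa1 at 0.38 are the filled points, and 79 of 87 genes lie within 0.15 of 0.

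By complex, the medians lay between -0.048 and 0.042. Complex I subunits had a median log2 change of 0.012 over 34 genes, the complex I assembly factors -0.048 over 7, complex II -0.039 over 4, complex III 0.042 over 8, complex IV 0.033 over 17 and complex V 0.014 over 17. Ndufa4 and Ndufa4l2 were counted with complex IV, in which the Ndufa4 protein sits despite its name. Without them the median of complex IV was 9.2e-05. These medians are of the size of a scaling step: centring each array on its median moved the median of all 87 genes to 0.064 and those of complex II and of the assembly factors to 0.022 and 0.013, above 0. Single arrays mattered as well: without Yap HET replicate 3 the medians were -0.011 for the 87 genes, -0.012 for complex I subunits, -0.12 for the assembly factors and -0.0070 for complex V, and without Yap HET replicate 2 they were 0.023, 0.037, -0.0040 and 0.0087. Complex I subunits also had -0.0080 without Yap KO replicate 3, and the 87 genes -0.0026 without Yap KO replicate 2. On single arrays, the median of the 87 genes, each relative to its own mean over 6 arrays, was -0.020, 0.024 and 0.013 on Yap KO replicates 1, 2 and 3 and 0.0087, 0.028 and -0.051 on Yap HET replicates 1, 2 and 3. The lowest array was thus a Yap HET array, and the groups overlapped. Complex II alone had a separate order, with -0.040, -0.0076 and -0.030 on the Yap KO arrays and 0.028, 0.037 and 0.028 on the Yap HET arrays.

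**Figure D2:**
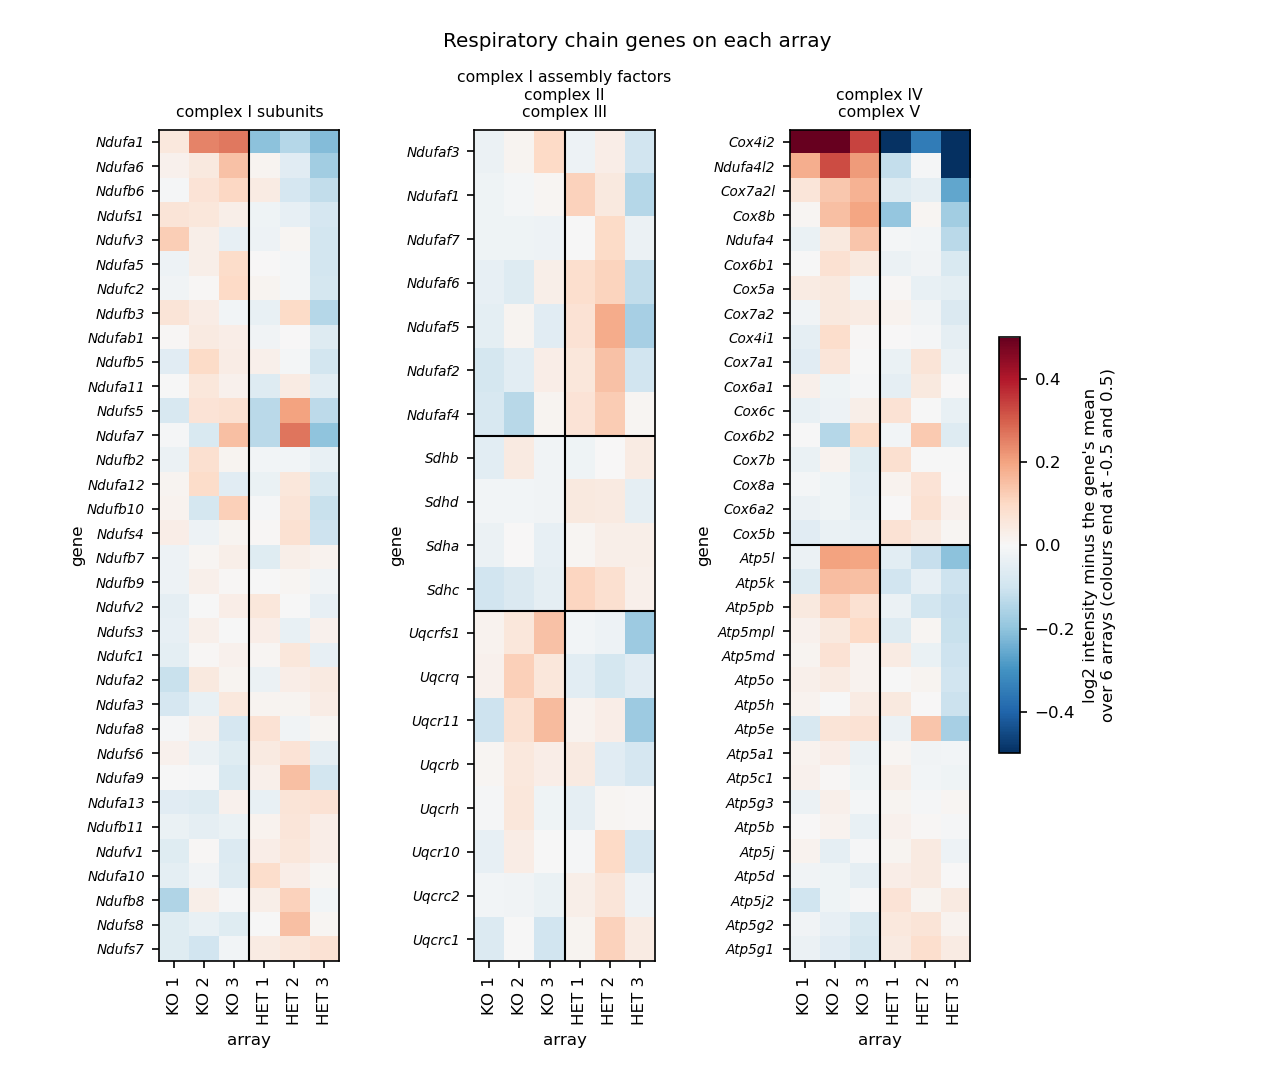
Log2 intensity of each respiratory chain gene (rows) on each array (columns, Yap KO to the left of Yap HET) relative to the gene's mean over 6 arrays. Genes run from the highest to the lowest log2 change within each complex, and colours end at -0.5 and 0.5. Cox4i2 is the row with the strongest split between the groups, and most rows are pale.

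Among complex I subunits, Ndufa1 was the gene that rose. Its protein is a membrane-arm subunit needed for assembly of the complex, and its gene lies on the X chromosome (probe set 10604100). Its intensity was 907, 1037 and 1051 on the Yap KO arrays and 758, 793 and 752 on the Yap HET arrays. All Yap KO values were above all Yap HET values, and the lowest Yap KO value was on replicate 1. The means were 998 ± 79.2 in Yap KO and 767 ± 22.1 in Yap HET cells (SD, n = 3 each), a log2 change of 0.38 ± 0.07 and a 1.30-fold higher level (limma adjusted p = 0.016). The call ended without Yap KO replicate 2 (limma adjusted p = 0.074), Yap KO replicate 3 (0.055), Yap HET replicate 1 (0.068) or Yap HET replicate 3 (0.051), and the change stayed between 0.34 and 0.44.

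Neither of the other X-linked respiratory chain genes passed the test. Ndufb11, another membrane-arm subunit of complex I, had 4141, 4100 and 4136 in Yap KO and 4280, 4415 and 4330 in Yap HET cells, a log2 change of -0.07 ± 0.05 (limma adjusted p = 0.33). Cox7b, a complex IV subunit, had a change of -0.05 ± 0.05 (limma adjusted p = 0.55). The dimmer probe sets of Ndufb11 and Cox7b gave -0.11 and -0.01. The arrays differed in sex-linked transcripts: Xist, the RNA of the inactive X chromosome, read 3015, 988 and 1356 on the Yap KO arrays and 2112, 2313 and 600 on the Yap HET arrays. Y-linked Uty was lowest on Yap KO replicate 1 and read 391 and 332 on the other Yap KO arrays, against 136, 107 and 430 on the Yap HET arrays. Both transcripts thus read above the filter level on every array except Yap KO replicate 1. Hearts were digested one by one, but the labels do not say whether cells of several embryos, of either sex, were joined for an array. With the Xist level in the model the change of Ndufa1 was 0.38 ± 0.07 (limma adjusted p = 0.019).

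The other 33 complex I subunits did not pass the test, and their changes ran from -0.11 to 0.14. The core subunits carry the flavin, the iron-sulphur clusters and the quinone site. Of the 6 measured, Ndufs1 was positive (2803, 2791 and 2742 in Yap KO and 2642, 2606 and 2532 in Yap HET cells, 0.10 ± 0.05) and 5 were negative. The lowest was Ndufs7, which holds an iron-sulphur cluster near the quinone site, with 6568, 6401 and 6770 in Yap KO and 7031, 7114 and 7194 in Yap HET cells (-0.11 ± 0.05, limma adjusted p = 0.17). Ndufv1, the subunit that binds NADH, had a change of -0.08 ± 0.05. Of 28 accessory subunits, 18 were positive and 10 negative, and after Ndufa1 the largest positive change was that of Ndufa6 (0.14 ± 0.07, limma adjusted p = 0.20). The core subunits were also brighter, with a median intensity of 3530 against 2279 for the accessory ones. Over the 87 genes, brighter genes tended to have lower changes (Spearman correlation -0.28). A difference between core and accessory subunits was not tested. Of 7 Ndufaf genes, whose proteins help to assemble complex I and are not part of it, 6 were negative. They ran from Ndufaf4 (634, 609 and 677 in Yap KO and 702, 731 and 675 in Yap HET cells, -0.13 ± 0.06, limma adjusted p = 0.19) to Ndufaf3 (0.06 ± 0.06).

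Complex II and complex III had 0 genes past the threshold (limma), with 1 lower by an unadjusted p under 0.05 in complex II and 1 higher in complex III. With 4 and 8 genes, and 5.16% higher and 4.76% lower over all genes tested, a count of 0 says little. By an unadjusted p the shares over all genes tested were 13.9% higher and 14.4% lower. In complex II, Sdhc, a membrane anchor that helps to bind quinone, had 3923, 3990 and 4059 in Yap KO and 4513, 4435 and 4263 in Yap HET cells. The groups did not overlap, and the change was -0.14 ± 0.05 (limma adjusted p = 0.11), the most negative of the 87 genes. Sdha, the flavoprotein that oxidises succinate, had a change of -0.05 ± 0.05. In complex III, Uqcrfs1, the Rieske iron-sulphur protein, had 1324, 1360 and 1446 in Yap KO and 1295, 1284 and 1153 in Yap HET cells (0.15 ± 0.06, limma adjusted p = 0.18). The small subunit gene Uqcrq had a change of 0.13 ± 0.05 (limma adjusted p = 0.13) and Uqcrc1, a core protein gene, of -0.11 ± 0.05 (limma adjusted p = 0.21).

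In complex IV the largest change of all 87 genes was in Cox4i2. Subunit 4 carries a regulatory site, and isoform 2 is known to be induced by low oxygen and to be abundant in lung, smooth muscle and pericytes. Cox4i2 (chromosome 2, probe set 10477179) read 912, 943 and 817 on the Yap KO arrays and 459, 507 and 445 on the Yap HET arrays. The lowest Yap KO value was well above the highest Yap HET value. The means were 891 ± 65.8 in Yap KO and 470 ± 32.4 in Yap HET cells (SD, n = 3 each), a log2 change of 0.92 ± 0.08 and a 1.89-fold higher level (limma adjusted p = 0.0012). It ranked 27 among the rises of 13632 genes. Over all 17 alternatives the change lay between 0.88 and 0.98 and the limma or linear model adjusted p between 3.4e-07 and 0.039. Cox4i1, the isoform made in most cells, read 3449, 3783 and 3575 in Yap KO and 3567, 3542 and 3446 in Yap HET cells, a change of 0.03 ± 0.05 (95% interval -0.09 to 0.16, limma adjusted p = 0.73).

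Ndufa4l2, a homologue of Ndufa4 that is also known to be induced by low oxygen and to lower complex I activity, was dim. It read 174, 192 and 178 on the Yap KO arrays and 141, 153 and 102 on the Yap HET arrays. The groups did not overlap, but Yap HET replicate 3 stood below the other two, and the change of 0.48 ± 0.14 missed the threshold (limma adjusted p = 0.070). It passed without Yap HET replicate 2 (0.60, limma adjusted p = 0.035). Ndufa4, the regular complex IV subunit, had a change of 0.10 ± 0.06 (limma adjusted p = 0.32). Cox7a2l, whose protein joins complexes III and IV into supercomplexes, had 1081, 1137 and 1168 in Yap KO and 991, 1005 and 865 in Yap HET cells (0.25 ± 0.07, limma adjusted p = 0.067). Its second probe set gave 0.28. Cox8b, the heart and muscle isoform of subunit 8, had 1589, 1750 and 1808 in Yap KO and 1380, 1589 and 1397 in Yap HET cells, so that Yap KO replicate 1 and Yap HET replicate 2 read alike. Its change was 0.24 ± 0.08 (limma adjusted p = 0.088), which passed without Yap HET replicate 2 (0.30, limma adjusted p = 0.040). The other 12 complex IV genes had changes from -0.09 (Cox5b) to 0.08 (Cox6b1), among them the catalytic-core partner gene Cox5a at 0.05 ± 0.05.

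**Figure D3:**
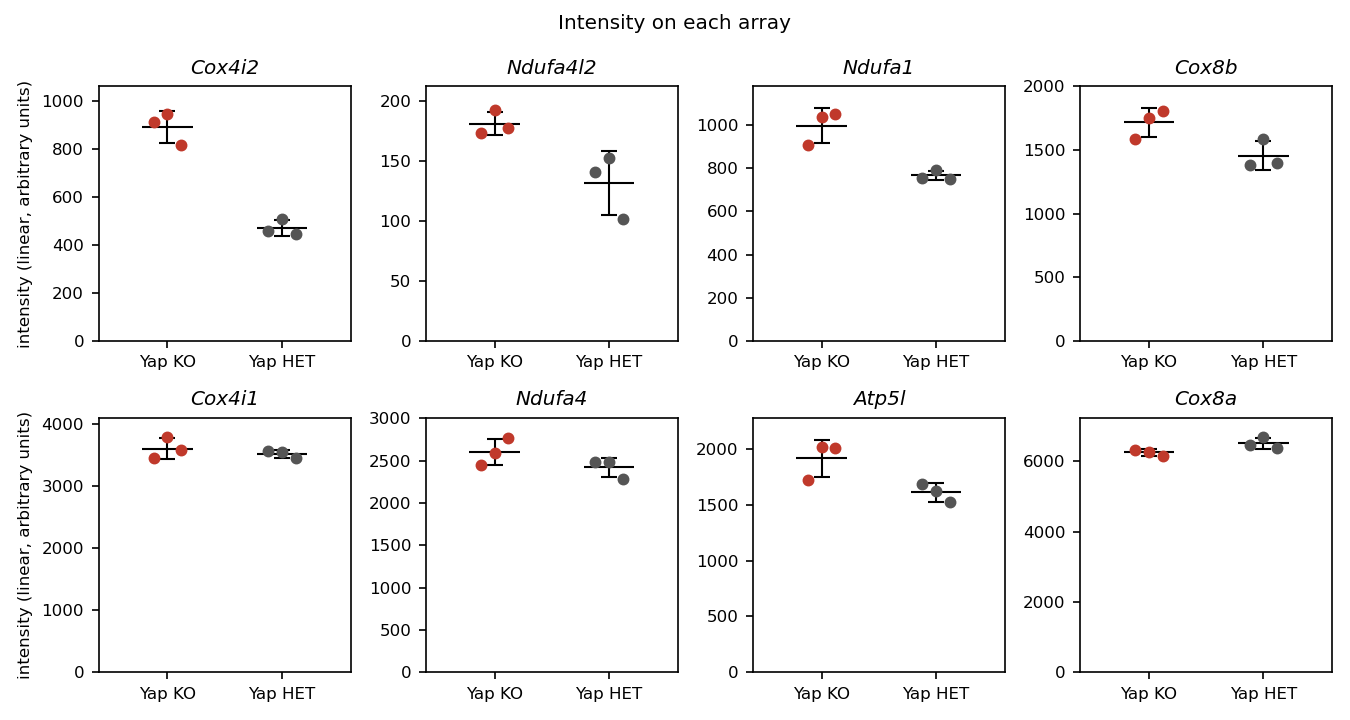
Linear intensity (vertical axes, from 0) on the 3 Yap KO and 3 Yap HET arrays for 8 respiratory chain genes. Points are arrays, and bars give the mean and SD. Cox4i2 reads between 817 and 943 in Yap KO and between 445 and 507 in Yap HET cells, while its partner isoform Cox4i1 overlaps between the groups.

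Isoform pairs were compared within each array. The change of Cox4i2 exceeded that of Cox4i1 by 0.89, that of Ndufa4l2 exceeded that of Ndufa4 by 0.38, and that of Cox8b exceeded that of Cox8a by 0.30. Each had a two-sided exact permutation p of 0.1, the smallest that 3 arrays against 3 allow, and 0.13 after Benjamini-Hochberg adjustment over 8 pairs. No pair could therefore pass. Of the other heart and muscle isoforms, Cox6a2 had a change of -0.07 ± 0.05 beside -0.0022 ± 0.05 for Cox6a1, and Cox7a1 had 9.2e-05 ± 0.06 beside 0.05 ± 0.05 for Cox7a2. The pair differences were -0.06 (exact permutation p = 0.1, adjusted 0.13) and -0.05 (exact permutation p = 0.4, adjusted 0.4). Cox6b2, a testis-enriched isoform, was dim, with a change of -0.03 ± 0.08, and Cox6b1 had 0.08 ± 0.05 (difference -0.12, exact permutation p = 0.4, adjusted 0.4).

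In complex V, 0 of 17 genes passed the threshold (limma), with 2 higher and 1 lower by an unadjusted p under 0.05. Over all genes tested these shares were 13.9% and 14.4%. The catalytic head subunits alpha and beta, Atp5a1 and Atp5b, had changes of 0.01 ± 0.05 and -0.01 ± 0.05. Atp5a1 read 7380, 7443 and 7134 in Yap KO and 7331, 7195 and 7217 in Yap HET cells, and the groups overlapped. The largest changes were in the membrane part. Atp5l, subunit g, had 1718, 2012 and 2009 in Yap KO and 1688, 1619 and 1521 in Yap HET cells, with Yap KO replicate 1 close to Yap HET replicate 1 (0.25 ± 0.08, limma adjusted p = 0.084). All 6 of its probe sets gave changes between 0.22 and 0.25, and it passed the test without Yap KO replicate 1 (0.32, limma adjusted p = 0.035). The stalk subunit gene Atp5pb had 0.16 ± 0.05 (limma adjusted p = 0.088) on the brighter and 0.06 on the dimmer of its probe sets, which therefore disagreed in size. The genes of the c subunit, which forms the rotating ring, were negative: Atp5g1 had 7648, 7516 and 7358 in Yap KO and 8063, 8280 and 8046 in Yap HET cells (-0.11 ± 0.05, limma adjusted p = 0.16), Atp5g2 -0.09 ± 0.05 and Atp5g3 -0.01 ± 0.05. Atp5g1 and Atp5g2 each had all Yap KO arrays below all Yap HET arrays. The difference of Atp5g1 from Atp5g2 was -0.02 and from Atp5g3 -0.10 (exact permutation p = 0.1, adjusted 0.13, for each). Many of these genes have processed copies in the genome, so their probe sets can share signal, and 17 of the 87 had several probe sets.

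Hypoxia-inducible factors, which raise gene expression at low oxygen, bind a short DNA core, and the start regions of the genes with the largest positive changes are shown with its letters. RefSeq (GRCm38.p6) windows of 250 bases before to 50 after the start were found for 72 of the 87 genes, in 77 windows, but not for Cox4i2, Ndufa4l2 or Cox4i1. The 4 highest genes with a window were Ndufa1 (chrX:37191239-37191488), Atp5l (chr9:44920743-44920992), Cox7a2l (chr17:83514334-83514583) and Cox8b (chr7:140900447-140900696), all on the minus strand. The 250 bases before each start are given 5′ to 3′, with the core ACGTG of hypoxia-inducible factors, or its reverse complement CACGT, in capitals.
Ndufa1: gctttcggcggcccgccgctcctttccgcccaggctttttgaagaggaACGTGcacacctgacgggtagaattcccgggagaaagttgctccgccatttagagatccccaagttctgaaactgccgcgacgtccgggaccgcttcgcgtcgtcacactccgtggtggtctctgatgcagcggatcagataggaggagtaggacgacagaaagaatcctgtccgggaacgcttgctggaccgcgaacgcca
Atp5l: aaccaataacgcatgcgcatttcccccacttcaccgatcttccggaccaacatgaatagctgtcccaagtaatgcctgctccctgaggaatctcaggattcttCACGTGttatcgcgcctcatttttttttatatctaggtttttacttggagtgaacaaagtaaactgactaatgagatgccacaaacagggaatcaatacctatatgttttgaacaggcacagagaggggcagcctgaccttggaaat
Cox7a2l: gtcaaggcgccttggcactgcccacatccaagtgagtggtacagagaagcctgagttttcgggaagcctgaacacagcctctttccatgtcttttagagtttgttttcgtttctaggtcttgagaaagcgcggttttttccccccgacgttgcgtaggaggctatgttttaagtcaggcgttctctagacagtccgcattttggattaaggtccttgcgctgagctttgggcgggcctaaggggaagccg
Cox8b: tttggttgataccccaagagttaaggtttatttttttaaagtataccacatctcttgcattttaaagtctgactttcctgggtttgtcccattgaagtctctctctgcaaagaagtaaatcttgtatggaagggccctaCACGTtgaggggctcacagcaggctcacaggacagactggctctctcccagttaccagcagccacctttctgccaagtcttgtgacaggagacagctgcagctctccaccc
The core is present for Ndufa1, Atp5l and Cox8b and is not in the Cox7a2l window. Of the genes with the next largest positive changes, Atp5pb held it and Atp5k, Uqcrfs1 and Ndufa6 did not. Of those with the most negative changes and a window, Atp5g1 (-0.11) and Atp5g2 (-0.09) held it. Ndufaf4, Ndufs7, Uqcrc1 and Ndufs8 did not. Whether the core went with the direction of change was not tested. The core was found on either strand in 24.7% of the windows of respiratory chain genes (19 of 77) and in 19.6% of all 32851 windows. Motifs of factors known to drive nuclear mitochondrial genes were also counted: CGCATGC (NRF1) was in 16.9% of the respiratory chain windows and 3.58% of all windows, CCGGAAG (ETS factors) in 23.4% and 8.86%, and AAGATGG (YY1) in 13% and 6.34%. GGAATG (TEAD factors, the DNA-binding partners of Yap) was in 11.7% and 14.7%. The windows of respiratory chain genes had a median GC content of 58.3%, against 52.7% in all windows. Atp5l held NRF1 and ETS letters, and Ndufa1, Cox7a2l and Cox8b held none of these other motifs. A match of letters is not a bound site, and a window without them says nothing of the factor.

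Cox4i2 rose together with 4 mitochondrial or metabolic genes outside the complexes that are known to respond to oxygen. Of 10 such genes, Cox4i2 and Ndufa4l2 included, 5 rose and 0 fell (limma, against 5.16% higher and 4.76% lower over all genes tested). By an unadjusted p under 0.05, 7 were higher and 0 lower, against 13.9% and 14.4% of all genes tested. The median log2 change of the 10 genes was 0.32. The list was drawn up with the rise of hypoxia genes in these arrays already known, and is not independent evidence of a direction. Bnip3, which marks mitochondria for removal, had 3493, 3622 and 3065 in Yap KO and 2223, 2338 and 2209 in Yap HET cells (0.59 ± 0.07, limma adjusted p = 0.0042). Higd1a, a small protein that binds complex IV, had 732, 709 and 636 in Yap KO and 503, 524 and 479 in Yap HET cells (0.46 ± 0.07, limma adjusted p = 0.0078). On both genes, as on Cox4i2, Yap KO replicate 3 was the lowest of the Yap KO arrays and Yap HET replicate 2 the highest of the Yap HET arrays. Ndufa4l2 had its lowest Yap KO value on replicate 1 (174). Yap HET replicate 2 was also the highest Yap HET array in the median of all respiratory chain genes (0.028), so that part of the order was not particular to these genes. Pdk1, the kinase that holds back pyruvate dehydrogenase, rose by 0.35 ± 0.07 and Mxi1, a Myc antagonist, by 0.29 ± 0.07. Their calls ended without Yap KO replicate 1 or 2 or Yap HET replicate 1 or 3, and that of Pdk1 also without Yap KO replicate 3. Lonp1, the mitochondrial protease that degrades Cox4i1 protein at low oxygen, had a change of 0.16 ± 0.06 (limma adjusted p = 0.12), and Bnip3l of 0.08 ± 0.05.

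**Figure D4:**
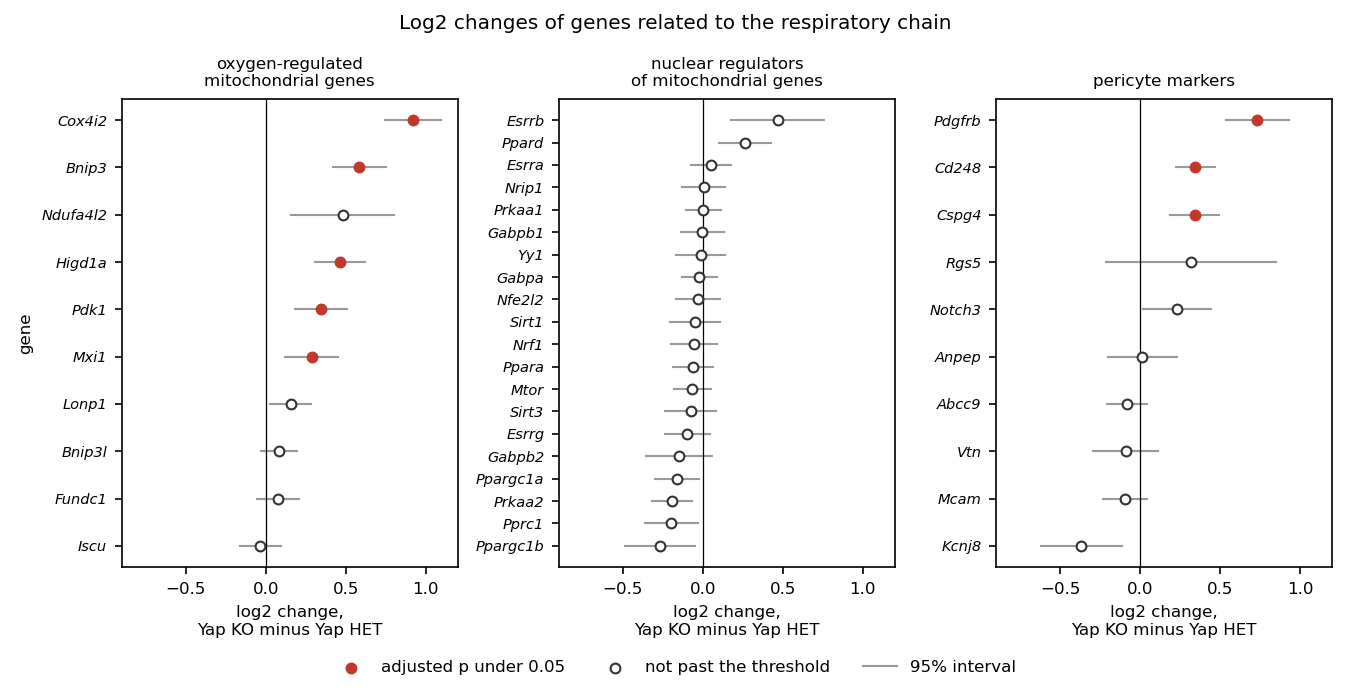
Log2 change (horizontal axes, Yap KO minus Yap HET) of genes (rows) in 3 lists, with 95% intervals as lines and filled points where the adjusted p was under 0.05. In the oxygen-regulated list 5 of 10 genes are filled, from Mxi1 at 0.29 to Cox4i2 at 0.92, in the list of nuclear regulators 0 of 20, and among pericyte markers 3 of 10.

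Genes of the machinery around the chain were read against the 9.93% of all genes tested that passed. By an unadjusted limma p under 0.05, 13.9% of all genes tested were higher and 14.4% lower. Of 20 nuclear regulators of mitochondrial genes, 0 passed the test (limma, 2 higher and 4 lower by an unadjusted p under 0.05), with a median of -0.052. Their changes were positive for 5 and negative for 15, against 6137 and 7495 of all genes tested. Their summed intensity was 18524 to 19210 in Yap KO and 19426 to 19848 in Yap HET cells. The sums and changes of this list were not centred. Median intensity over all probe sets was 128 to 133 on the Yap KO arrays and 132 to 140 on the Yap HET arrays. Centring on it moved the median of all genes tested from -0.017 to 0.044, a step of the size of the list's median. Whether the list was still lower after centring was not tested. The coactivator genes Ppargc1a (2527, 2312 and 2235 in Yap KO and 2596, 2695 and 2624 in Yap HET cells, -0.16 ± 0.06, limma adjusted p = 0.12) and Ppargc1b (-0.27 ± 0.09, limma adjusted p = 0.11) had negative changes. Nrf1 had -0.06 ± 0.06 and the ETS factor gene Gabpa -0.02 ± 0.05. Of 38 assembly factors outside the Nduf names, 2 rose and 2 fell, a share close to that of all genes tested. Besides Higd1a, which also stands in the oxygen-regulated list, they were the complex I factor genes Tmem126b (0.20 ± 0.05, limma adjusted p = 0.046) and Foxred1 (-0.21 ± 0.05, limma adjusted p = 0.042), and Cox18 (-0.20 ± 0.05, limma adjusted p = 0.043), which inserts a complex IV subunit into the membrane. Of 20 genes of electron carriers, the coenzyme Q gene Coq4 fell (-0.31 ± 0.07, limma adjusted p = 0.033). By an unadjusted p 1 was higher (Sqor at 0.35) and 5 were lower, Coq4 with Coq3, Coq5, Coq6 and Dhodh (-0.19 to -0.16). Groups did not overlap for 2 higher and 7 lower genes, against 16.7% and 17.2% of all genes tested. Cytochrome c, Cycs, had a change of 0.03 ± 0.06 and the complex III cytochrome gene Cyc1 -0.07 ± 0.05. Of 21 genes for mitochondrial DNA and RNA upkeep, the topoisomerase gene Top1mt fell (-0.22 ± 0.05, limma adjusted p = 0.038), and of 22 carriers and import genes the aspartate-glutamate carrier gene Slc25a13 (-0.30 ± 0.05, limma adjusted p = 0.011). By an unadjusted p, 2 and 0 genes of these lists were higher and 4 and 4 lower. Of 19 genes of the tricarboxylic acid cycle and pyruvate dehydrogenase and of 17 genes of membrane shape, 0 passed (limma, with 1 and 3 higher and 2 and 1 lower by an unadjusted p under 0.05). Groups did not overlap for 2 higher and 8 lower of the 19 genes, against 16.7% and 17.2% of all genes tested. The summed intensity of the 19 was 59819 to 61103 in Yap KO and 61345 to 62387 in Yap HET cells, also without centring. The calls of Tmem126b, Foxred1, Cox18 and Top1mt ended whichever array was left out, that of Coq4 in each case except without Yap KO replicate 1, and that of Slc25a13 without Yap KO replicate 2 or Yap HET replicate 1.

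Some markers of other cells, pericytes among them, which can express Cox4i2 and Ndufa4l2, also differed. Of 10 pericyte markers measured, a list added after the value of Cox4i2 was seen, 3 rose and 0 fell, with 4 higher and 1 lower by an unadjusted p and a median of 0.12. Over all genes tested, 5.16% rose and 4.76% fell, and by an unadjusted p 13.9% were higher and 14.4% lower. The summed intensity of the pericyte markers was 8404 to 8699 in Yap KO and 8046 to 8240 in Yap HET cells. Most of it came from Mcam and Abcc9, which were not higher in Yap KO cells. Mcam read 2892 to 3180 in Yap KO and 3128 to 3402 in Yap HET cells, and Abcc9 1937 to 2033 and 2015 to 2217. Pdgfrb, a receptor of pericytes and mesenchymal cells, had 424, 458 and 512 in Yap KO and 275, 301 and 260 in Yap HET cells (0.73 ± 0.08, limma adjusted p = 0.0034), and Cd248 and Cspg4 rose by 0.35 ± 0.05 and 0.34 ± 0.07. The call of Cspg4 ended without Yap KO replicate 1 or 2 or Yap HET replicate 1 or 3. The defining pericyte channel gene Kcnj8 had 95.2, 124 and 127 in Yap KO and 156, 140 and 146 in Yap HET cells (-0.37 ± 0.11, limma adjusted p = 0.076), Rgs5 overlapped between the groups (0.32 ± 0.23), and Higd1b was below the filter level on every array. Of 14 mesenchymal, epicardial and smooth muscle markers, 4 rose and 0 fell. Besides Pdgfrb, these were Pdgfra (0.98 ± 0.10, limma adjusted p = 0.0024), Tcf21 (0.93 ± 0.17, limma adjusted p = 0.015) and Postn (0.72 ± 0.13, limma adjusted p = 0.014). By an unadjusted p 7 were higher and 3 lower (Upk3b at -0.68, Tagln at -0.46 and Tbx18 at -0.37). Their summed intensity was 15479 to 15708 in Yap KO and 15014 to 15743 in Yap HET cells. The brightest, Acta2, alone read 6509 to 7631 in Yap KO and 7690 to 7889 in Yap HET cells. Of 10 endothelial markers 2 rose and 1 fell, with 4 higher and 1 lower by an unadjusted p (sums of 1947 to 2103 in Yap KO and 1722 to 1810 in Yap HET cells). Kdr (0.76 ± 0.05, limma adjusted p = 5.0e-04) and Nfatc1 (0.31 ± 0.08, limma adjusted p = 0.044) rose, and Npr3 fell (-0.34 ± 0.06, limma adjusted p = 0.012). Red blood cell markers summed to 603 to 2773 in Yap KO and 482 to 864 in Yap HET cells, with the highest sum on Yap KO replicate 1. Of 5 macrophage markers 1 rose (Lyz2) and 0 fell, but 4 had negative changes, 3 of them lower by an unadjusted p (Cd68 at -0.72, Csf1r at -0.21 and Ptprc at -0.17), and the median was -0.17, with sums of 1700 to 1872 in Yap KO and 1601 to 1907 in Yap HET cells. Of 16 cardiomyocyte markers 1 rose, with a median of -6.9e-04 and sums of 111169 to 114075 in Yap KO and 111913 to 113488 in Yap HET cells. The part of these cells in the values of Cox4i2 and Ndufa4l2 was not tested.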

How the data were processed

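RNA of 3 Yap KO and 3 Yap HET samples had been measured on 1-colour Affymetrix mouse gene arrays. The deposited values were one intensity per probe set and array on a linear scale (2e-05 to 15701), and RMA is named in the submitters' processing notes; how linear values were made from it was not stated. The values were taken as linear from their range, which holds for every log2 change given here, and log2 was applied. Of 35556 probe sets, 21789 had 1 gene symbol, 1621 several and 12146 none in the platform annotation; symbols were updated through RefSeq (GRCm38.p6). The brightest probe set stood for its gene, genes under the 40th percentile of probe-set means were left out, and 13632 genes were tested with limma 3.58.1 in R 4.3.3 (lmFit, eBayes, Benjamini-Hochberg, threshold 0.05). Genes named by rule were those past the threshold, in each complex the largest rise, the largest fall and the 2 smallest p-values, isoform pairs, X-linked genes, catalytic core genes and called genes of the related lists; others, such as Ndufa6, Lonp1, Ppargc1a and Kcnj8, were chosen after their values were seen. On simulated data with 50 genes changed at each size, 16% were recovered at a log2 change of 0.25, 74% at 0.5, 94% at 1 and 100% at 2, with 9 false among 151 calls. The real arrays gave 1353 calls, and the changed genes were drawn from all genes tested. These rates are therefore not the rates for the respiratory chain genes. The respiratory chain genes and all lists were chosen with earlier results of these data known. Alternatives were other filters, normalizations and models, an Xist covariate, a replicate block and leaving out each array.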

Additional observations from a re-analysis of the deposited data

How the results depend on the processing

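Cox4i2 passed the threshold under all 17 alternatives. Besides the arrays named above, the call of Ndufa1 ended with no filter on level (adjusted p = 0.052) and in an unmoderated linear model (0.086). The count of respiratory chain genes higher in Yap KO cells (2) was 1 with no filter, 6 with the 60th percentile filter, 5 with median centring, 3 with cyclic loess, 8 with a trended and robust prior, 10 with array weights, 1 in the unmoderated model and 1 to 4 without single arrays; the other alternatives gave 2. Over all genes tested the share higher was 1.36% with no filter, 9.13% with the 60th percentile filter, 7.74% with median centring, 7.18% with cyclic loess and 0.69% in the unmoderated model. Without single arrays the share of all genes tested that were higher was 1.57% to 5.74%. The count of lower genes (0) was 1 with quantile normalization and 5 each with the trended prior and array weights. Quantile normalization called 5.61% of all genes tested lower, and the trended prior 7.75%. Array weights called 15% of all genes tested higher and 18.9% lower. Median centring gave medians of 0.064 for the 87 genes, 0.074 for complex I subunits, 0.022 for complex II, 0.10 for complex III, 0.094 for complex IV and 0.075 for complex V, while the median of all genes tested was 0.044 with it and -0.017 without. Without single arrays the medians were -0.011 to 0.023 for the 87 genes, -0.012 to 0.037 for complex I subunits and -0.12 to -0.0040 for the assembly factors. Complex II had -0.054 after quantile normalization and -0.052 to -0.031 without single arrays; complex V had -0.0096 with array weights and -0.0070 to 0.022 without single arrays. The median of complex IV without Ndufa4 and Ndufa4l2 (9.2e-05) was an alternative chosen after seeing the data. The unmoderated model also ended the calls of Bnip3, Higd1a, Pdk1, Mxi1, Pdgfrb and Cd248. At least 1 alternative other than leaving out an array ended the calls of Cspg4, Coq4, Tmem126b, Foxred1, Cox18, Top1mt and Slc25a13. Their highest adjusted p in such alternatives ran from 0.053 (Slc25a13) to 0.24 (Cox18), by limma or the unmoderated linear model. Ndufa4l2 passed with median centring, the trended prior and array weights. With a replicate block, 698 genes passed in place of 1353, Cox4i2 and Ndufa1 among them (limma adjusted p = 0.0029 and 0.035), but not Pdk1 or Mxi1. Deviations of same-numbered arrays correlated at -0.076, -0.17 and 0.12, so the numbers were not taken to pair the samples. Of 847 combinations of a named gene and an alternative, 0 changed the sign of a called gene and 28 that of an uncalled one.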
